A study of Mus with 9 samples.

Results

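The genes described here include the machinery that docks, fuses and retrieves synaptic vesicles. They were chosen by symbol alone, as the synaptotagmins and synaptotagmin-like proteins (Syt, Sytl), the VAMPs, the syntaxins and syntaxin-binding proteins (Stx, Stxbp), the SV2 proteins, the SNAP proteins, the synapsins (Syn), the synaptogyrins (Syngr), the complexins (Cplx), the dynamins (Dnm), synaptophysin (Syp) and every symbol that begins with Rab3. The rule found 95 genes on 97 probe sets, of 22662 gene symbols on 22206 probe sets in all. A probe set is the group of short probes on the array that together give 1 value for a transcript. Vamp1 and Sytl3 had 2 probe sets each, and the other genes had 1. Because the rule reads letters, it also took in 12 probe sets of Rab30 to Rab39, which are GTPases of the Golgi, endosomes and other organelles and not forms of Rab3, as well as the pseudogene Stxbp3-ps and Snap91, a clathrin adaptor whose name resembles that of a SNARE. These are kept in every count unless said otherwise.

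The study asked how trigonelline (TG), a plant alkaloid found in coffee and fenugreek, affects the hippocampus of a mouse with early cognitive decline. Hippocampal RNA was hybridized to Clariom S Mouse arrays, with 3 arrays in each of 3 groups. SAMP8 is a senescence-accelerated inbred strain, and SAMR1 is a senescence-resistant strain of related origin that ages normally, so that the strains differ at many loci and not in a single allele. The groups were SAMR1 mice given vehicle, SAMP8 mice given vehicle, and SAMP8 mice given TG orally for 30 days at a daily 5 mg/kg. Dosing was carried on through the behavioral tests. The mice are given as 16 weeks old, and the study's methods describe the SAMP8 mice as male. By the methods this age precedes acclimatization, dosing and behavioral tests, so the mice were older when the hippocampus was taken. No SAMR1 group given TG was analysed here. The vehicle is water in the study's methods and saline in the sample records.

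A synaptic vesicle fuses when a SNARE protein on the vesicle (VAMP, also called synaptobrevin) zips together with syntaxin and SNAP-25 on the plasma membrane. Syntaxin-binding proteins (Stxbp) guide syntaxin, complexins clamp the half-zipped bundle, and a synaptotagmin senses calcium and triggers fusion. Synapsins hold vesicles in reserve, Rab3 and its effectors bring them to the release site, and dynamins pinch off the membrane that is taken back afterwards. In the hippocampus this cycle carries both glutamate and GABA release, and its short-term plasticity is used in learning.

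The authors' deposited tables give 1 average per group and probe set on the log2 scale, without the values of the single arrays. The authors' own p-values in these tables were not used. No SD, interval or test is therefore given for any value below, and every difference is a description of these averages. A difference of 1 on this scale is 2-fold, and a difference was counted when it was more than 1.5-fold (0.585 on the log2 scale). Both tables held identical SAMP8 averages, for 22206 of 22206 probe sets, so the SAMP8 arrays enter both the comparison with SAMR1 and the comparison with TG, and a SAMP8 average that is high by chance moves these in opposite directions. Group medians over all probe sets were 6.09 in SAMR1, 6.04 in SAMP8 and 6.07 in the TG-treated mice. None of 9 probe sets for neuron markers and none of 7 for hippocampal neuron markers lay in the lowest 25% of signal (means under 4.4), whereas 8 of the 97 member probe sets did. In bulk tissue, fewer cells of a type and less RNA per cell cannot be told apart.

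In the comparison of strains, SAMP8 minus SAMR1, 4 of 97 member probe sets were more than 1.5-fold higher in SAMP8 (4.12%), where 5% of all probe sets were. These were Sv2c, Rab3ip, Syt2 and Stxbp5l. More than 1.5-fold lower in SAMP8 were 2 member probe sets (2.06%), the second probe sets of Sytl3 and Vamp1, where 6.08% of all probe sets were. The member median was 0.06 on the log2 scale, with 59 probe sets above 0 and 36 below, and the median of all probe sets was 0.0. Strongly expressed genes stood higher in SAMP8 as a whole, with a median of 0.10 over all probe sets above the median signal, and that of the 76 members there was 0.125.

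With TG, TG-treated SAMP8 minus SAMP8, 3 of 97 member probe sets were more than 1.5-fold higher (3.09%), where 4.48% of all probe sets were. They were Sytl2, Vamp8 and Vamp1. More than 1.5-fold lower were 3 member probe sets (3.09%), Sv2c, Syn3 and Stxbp5l, where 3.74% of all probe sets were. The member median was 0.0, with 47 probe sets above 0 and 44 below, beside 0.01 for all probe sets. From the 5th to the 95th percentile the members ran from -0.43 to 0.50, and all probe sets ran from -0.53 to 0.56. By these counts the 97 member probe sets, as a set, stood no further from 0 with TG than all probe sets. This holds for the members chosen by symbol only. Of 55 probe sets of other release genes, described below, 5.45% were more than 1.5-fold higher with TG and 5.45% lower.

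Between TG-treated SAMP8 and SAMR1, 6 of 97 member probe sets were more than 1.5-fold higher in the treated SAMP8 mice (6.19%), where 5.62% of all probe sets were. They were Syt2, Rab3a, Sytl2, Vamp1, Syt11 and Snap47. More than 1.5-fold lower were 2 (2.06%), Stxbp5 and Snap91, where 4.83% of all probe sets were. The member median was 0.09, beside -0.01 for all probe sets and 0.03 for those above the median signal. This comparison shares its arrays with the other two, and strain and treatment differ in it together. In all, 15 member probe sets were past the limit in at least 1 comparison.

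The limit sets these counts. At 1.2-fold, 28 members were higher in SAMP8 than in SAMR1 where 20.4% of all probe sets were, and 13 were lower where 20.4% were. With TG, 15 members were higher at this limit against 19.6% of all probe sets, and 16 were lower against 18.5%. Between the treated mice and SAMR1 there were 25 higher members against 20% and 18 lower ones against 20.5%. At 2-fold, no member was higher and 1 lower between strains, against 0.797% and 1.43% of all probe sets. No member was past 2-fold with TG, against 0.437% higher and 0.324% lower, and between the treated mice and SAMR1 1 member was higher and 0 were lower, against 1.12% and 0.684%.

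**Figure D1:**
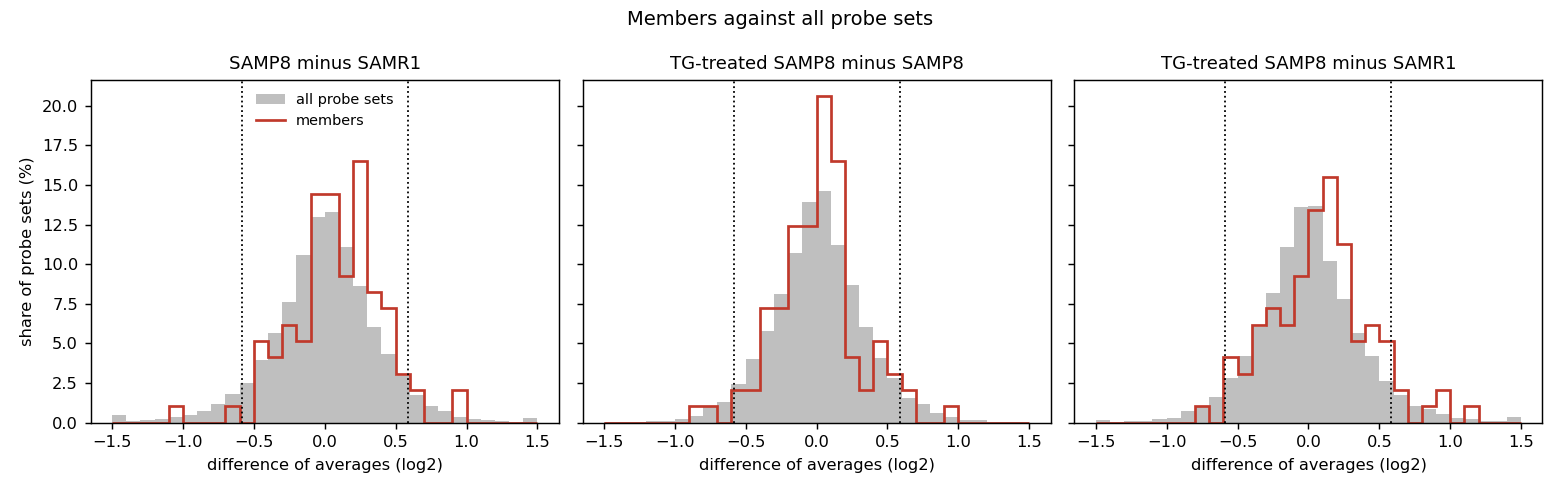
Share of probe sets (%, vertical axis) by log2 difference of group averages (horizontal axis, steps of 0.1) for all 22206 probe sets (grey) and the 97 members (red line), 1 panel per comparison. Values beyond the axis are put in its end steps, and dotted lines mark 1.5-fold. The member outlines lie over the grey distributions, with 6 of 97 members past 1.5-fold in the strain comparison, 6 with TG and 8 between TG-treated SAMP8 and SAMR1.

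The members on the vesicle membrane include the synaptophysin and synaptogyrin proteins with 4 membrane spans, the SV2 glycoproteins that synaptotagmin and botulinum toxins bind, and the synapsins. Of these 11 probe sets, 10 had a higher average in SAMP8 than in SAMR1 and none had a lower one (median 0.21). Among the 10, Sv2a and Sv2b were higher by only 0.03, and Syngr4, in the lowest 25% of signal, by 0.02. Of all probe sets 49.5% were higher, and of those above the median signal 62.0% (median 0.10). With TG 5 of the 11 were above 0 and 5 below (median 0.0). Sv2c, the SV2 form known mainly from the basal ganglia and brainstem, lies at chr13:95959443-96132577 on GRCm38. Its average was 6.91 in SAMR1, 7.85 in SAMP8 and 6.95 in the TG-treated mice. The SAMP8 average alone stood high, 0.94 on the log2 scale (1.92-fold) above SAMR1, and the difference with TG was -0.90 (1.87-fold), which left the treated mice 0.04 from SAMR1. Among 2115 probe sets of like signal (within 0.5 on the log2 scale), 1.0% had a more negative difference with TG.

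The relatives of Sv2c differed by less. Sv2a, the widely expressed form and the target of the drug levetiracetam, averaged 14.14 in SAMR1, 14.17 in SAMP8 and 14.24 in the TG-treated mice, a spread of 0.10. Sv2b gave 13.28, 13.31 and 13.01 in the same order, with a difference with TG of -0.30.

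Syn3 encodes the synapsin that is best known from immature neurons, and it lies at chr10:86048746-86498926. Its averages were 11.23 in SAMR1, 11.44 in SAMP8 and 10.71 in the TG-treated mice, so that the treated mice were lowest, -0.73 from SAMP8 (1.66-fold) and -0.52 from SAMR1. The main synapsins of mature terminals were higher in SAMP8 by less than the limit and differed little with TG. Syn1 had averages of 14.05, 14.35 and 14.31, and Syn2 of 16.38, 16.67 and 16.57, in SAMR1, SAMP8 and TG-treated SAMP8. Syp was 19.93 in all 3 groups. That is the highest value in the tables, which 10 probe sets held in all groups, so Syp can be read only as being at the top of the scale. Above 19 there were 27 probe sets, 2 of them members (Syp and Syt1), and the largest difference among the 27 was 0.47.

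**Figure D2:**
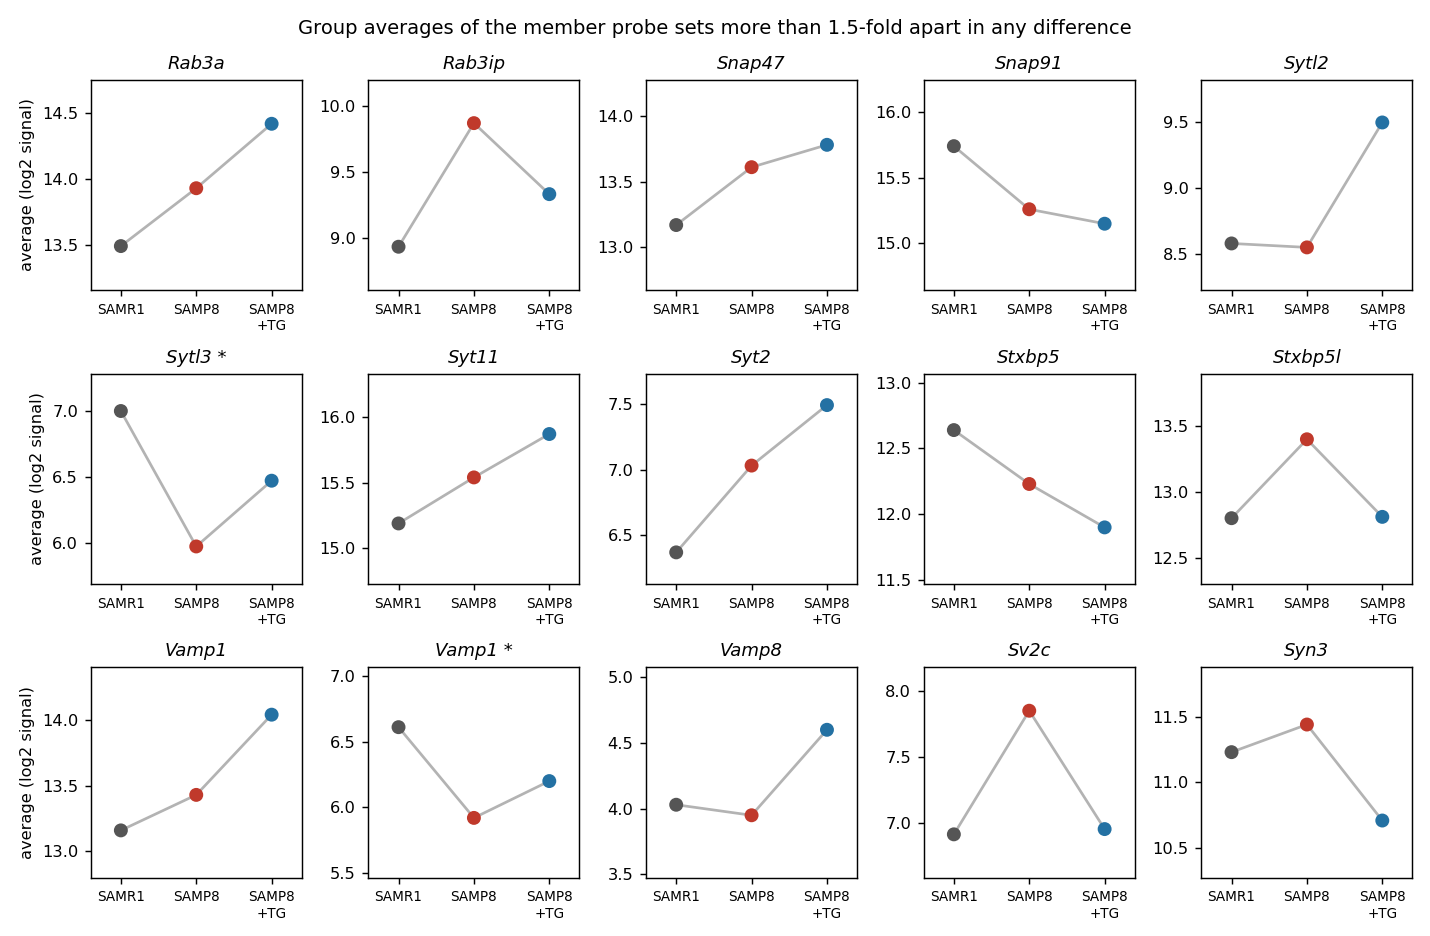
Group averages (log2 signal, vertical axis) of the 15 member probe sets more than 1.5-fold apart in at least 1 comparison, for SAMR1 (grey), SAMP8 (red) and TG-treated SAMP8 (blue). Each point is the authors' average of 3 arrays, with no error because single-array values were not used, every panel spans 1.6 log2 units, and * marks the second probe set of Vamp1 and of Sytl3. Sv2c and Stxbp5l peak in SAMP8, Rab3a, Syt2, Syt11, Snap47 and the first Vamp1 probe set are highest in TG-treated SAMP8, and Sytl2 is high in TG-treated SAMP8 alone.

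The synaptotagmins hold the calcium sensors. Of 17 probe sets, 10 were above 0 in SAMP8 minus SAMR1 (median 0.25), and with TG 5 were above 0 and 11 below (median -0.12). Of all 22206 probe sets, 10984 were above 0 between strains and 11108 with TG. None of the 17 passed 1.5-fold with TG, where 4.48% of all probe sets were higher and 3.74% lower. Syt1, the fast sensor of most forebrain synapses, was 19.70 in each of the 3 groups and so again lay near the top of the scale. Syt2 is the fast sensor of hindbrain synapses and of parvalbumin interneurons, and it lies at chr1:134646534-134753149. Its averages climbed across the groups, from 6.37 in SAMR1 to 7.03 in SAMP8 and 7.49 in the TG-treated mice. The differences were 0.66 between strains (1.58-fold), 0.46 with TG (1.38-fold) and 1.12 between the treated mice and SAMR1 (2.17-fold). No other member was more than 2-fold higher in any comparison. Among the 2208 probe sets of like signal, 98.6% had a lower value in this last comparison.

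Syt7, the high-affinity sensor of asynchronous release and facilitation, had averages of 12.87, 12.86 and 12.87 and so differed by 0.01 at most. Syt11 does not bind calcium and is linked to vesicle retrieval, and it lies at chr3:88744699-88775159. It stood at 15.19 in SAMR1, 15.54 in SAMP8 and 15.87 in the TG-treated mice, with the groups in the same order as for Syt2. The steps of 0.35 and 0.33 were each under the limit, and the treated mice were 0.68 above SAMR1 (1.60-fold). Syt5 went the other way, with 11.93, 11.85 and 11.40 and a difference with TG of -0.45.

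The synaptotagmin-like proteins bind Rab27 and carry secretory granules and melanosomes in many cell types. Sytl2, at chr7:90302211-90410719, had the highest difference with TG of all members. Its averages were 8.58 in SAMR1, 8.55 in SAMP8 and 9.50 in the TG-treated mice, so that both vehicle groups were low and within 0.03 of each other. The difference with TG was 0.95 (1.93-fold), higher than for 98.9% of 1714 probe sets of like signal. Of the 6 probe sets of this family, 5 were above 0 with TG (median 0.36), with Sytl5 at -0.30 as the exception. Of all 22206 probe sets, 11108 were above 0 with TG. Among the 5, Sytl3 enters with both its probe sets, and Sytl1 and Sytl4 were at 0.12 and 0.23. The mean signals of Sytl1, Sytl4 and a Sytl3 probe set were 4.69, 4.67 and 4.8, not far above the lowest 25% (under 4.4). Sytl3, at chr17:6658133-6738070, gave different answers by probe set. One had 4.64, 4.62 and 5.13 and the other 7.00, 5.97 and 6.47 in SAMR1, SAMP8 and TG-treated SAMP8. The strain difference was thus -0.02 on the first and -1.03 (2.04-fold) on the second, while the differences with TG were 0.51 and 0.50.

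Among the vesicle SNAREs, Vamp2, the main synaptobrevin of the forebrain, kept close averages of 15.34, 15.33 and 15.43. Vamp1, the form best known from spinal cord, brainstem and subsets of forebrain neurons, lies at chr6:125215581-125222306. Its probe set of strong signal had 13.16 in SAMR1, 13.43 in SAMP8 and 14.04 in the TG-treated mice. The treated mice were highest, 0.61 above SAMP8 (1.53-fold) and 0.88 above SAMR1 (1.84-fold). The second Vamp1 probe set is annotated to Vamp1 and to E130112N10Rik together, and there the averages were 6.61, 5.92 and 6.20, so that SAMP8 was lowest (-0.69 from SAMR1) and the difference with TG was 0.28. The probe sets disagreed on the direction between strains and agreed on the direction with TG.

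Vamp8, an endosomal SNARE that drives secretion in platelets, mast cells and glands, lies at chr6:72385221-72390667. Its averages were 4.03, 3.95 and 4.60, a difference with TG of 0.65 (1.57-fold). All of this lies near the lower end of the array's signal, where the probe set belongs to the lowest 25%. Over the 8 VAMP probe sets, 6 were above 0 with TG and 1 below (median 0.13). Vamp1 enters this count with both its probe sets (0.61 and 0.28). Of all 22206 probe sets, 11108 were above 0 with TG.

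Of the partners on the plasma membrane, none of 15 syntaxin probe sets passed 1.5-fold in any comparison, where 3.74% to 6.08% of all probe sets did in each direction, and with TG they ran from -0.33 (Stx6) to 0.19 (Stx7). Stx1a, a syntaxin of synaptic release, had averages of 8.78, 8.73 and 8.90 in SAMR1, SAMP8 and TG-treated SAMP8. Snap25 had 17.92, 18.23 and 18.06, which is 0.31 higher in SAMP8 than in SAMR1 and -0.17 with TG. Snap47, a brain relative of SNAP-25 without its membrane anchor, lies at chr11:59407141-59450041. Its averages of 13.17, 13.61 and 13.78 placed SAMR1 lowest, and the treated mice were 0.61 above it (1.53-fold).

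Of 8 probe sets of syntaxin-binding proteins, 3 were above 0 between strains and 5 below (median -0.11), and with TG 2 were above 0 and 6 below (median -0.15). Of all 22206 probe sets, 10984 were above 0 between strains and 11108 with TG. Of those above the median signal, 62.0% and 43.4% were. The pseudogene Stxbp3-ps is among the 8, at -0.12 between strains and -0.15 with TG. Stxbp5 and Stxbp5l encode the tomosyns, which occupy syntaxin in place of VAMP and so hold release back. Stxbp5l, at chr16:37107075-37385015, had 12.80 in SAMR1, 13.40 in SAMP8 and 12.81 in the TG-treated mice. Only the SAMP8 average stood apart, by 0.60 from SAMR1 (1.52-fold) and by -0.59 with TG (1.51-fold), both just past the limit. Stxbp5, at chr10:9755547-9901287, instead had a lower average in each step, with 12.64, 12.23 and 11.90, and the treated mice were at -0.74 from SAMR1 (1.67-fold). Of 629 probe sets of like signal, 1.6% had a more negative value there.

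The 4 complexin probe sets lay within the limit in every comparison, where 3.74% to 6.08% of all probe sets passed it in each direction. Cplx1, the form of fast inhibitory and brainstem synapses, had 13.23, 13.48 and 13.65, and Cplx2, the form of most excitatory forebrain synapses, had 11.74, 11.90 and 11.97. Both averages were lowest in SAMR1 and highest with TG.

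Rab3a, the most abundant Rab of synaptic vesicles, lies at chr8:70754703-70758608. Its averages were 13.49 in SAMR1, 13.93 in SAMP8 and 14.42 in the TG-treated mice, in the order seen for Syt2, Syt11 and Vamp1. The steps were 0.44 and 0.49, each under the limit, and together 0.93 (1.91-fold), higher than for 97.8% of 318 probe sets of like signal. Rab3b, with 9.71, 9.79 and 10.06, and Rab3d, with 4.44, 4.59 and 4.65, had the groups in the same order with smaller steps. Rab3c had 14.42, 14.77 and 14.38, so that SAMP8 was highest and the difference with TG was -0.39. Rab3ip (Rabin8, an exchange factor that loads Rab8), at chr10:116905780-116950456, had 8.93, 9.87 and 9.33. It was high in SAMP8, by 0.94 (1.92-fold), and the treated mice lay between the vehicle groups, at -0.54 from SAMP8.

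For retrieval, Dnm1, the neuronal dynamin, averaged 13.90 in SAMR1, 13.62 in SAMP8 and 14.09 in the TG-treated mice. SAMP8 was lowest, at -0.28 from SAMR1, and the difference with TG of 0.47 (1.39-fold) was under the limit. Dnm2, the form of all tissues, had 12.18, 12.19 and 12.17, and Dnm3 had 12.60, 12.53 and 12.48. Snap91 (AP180), which sizes clathrin-coated vesicles and sorts VAMP2, lies at chr9:86765923-86880734. Its averages of 15.74, 15.26 and 15.15 were highest in SAMR1, and the treated mice were at -0.59 (1.51-fold). Just outside the limit lay Rab39b (0.54) between strains, Rab35 (0.57) and Rab3ip (-0.54) with TG, and Rab35 (0.58) and Vamp8 (0.57) between the treated mice and SAMR1.

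**Figure D3:**
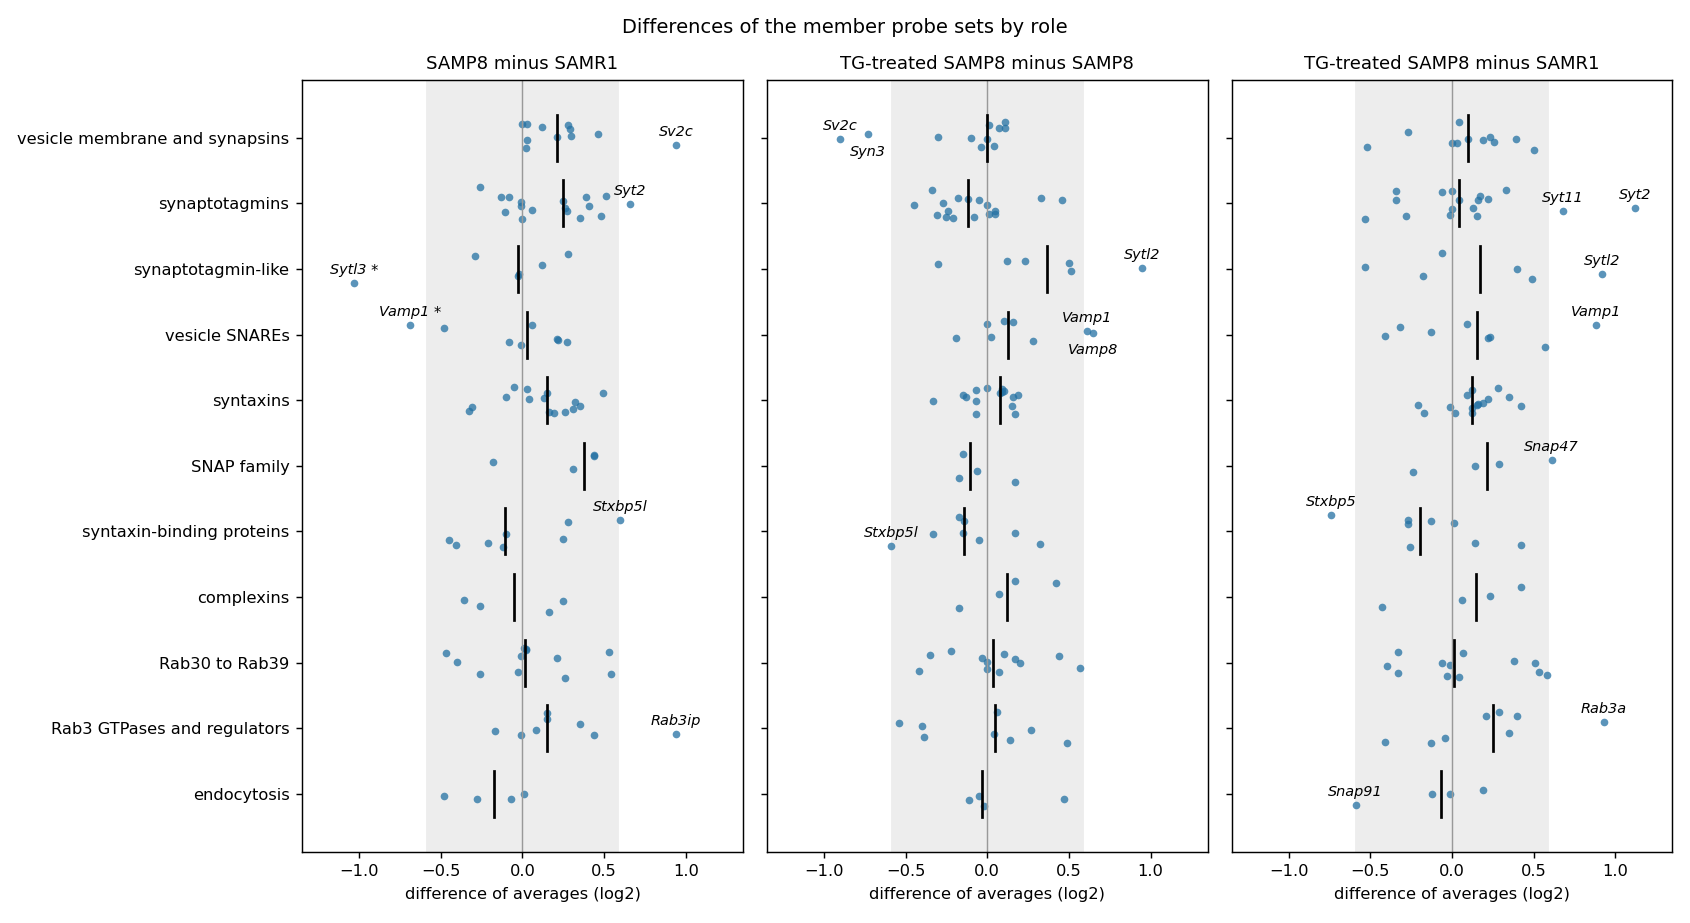
Differences of group averages (log2, horizontal axis) of the 97 member probe sets, 1 point each, by role (rows) and comparison (panels). Black bars are the medians of each role, the grey band is 1.5-fold in either direction, points are spread vertically only to separate them, and * marks the second probe set of Vamp1 and of Sytl3. Most points lie in the band, the vesicle membrane row lies at or above 0 in SAMP8 minus SAMR1, and Sytl2 and Sv2c are the outermost points with TG.

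**Figure D4:**
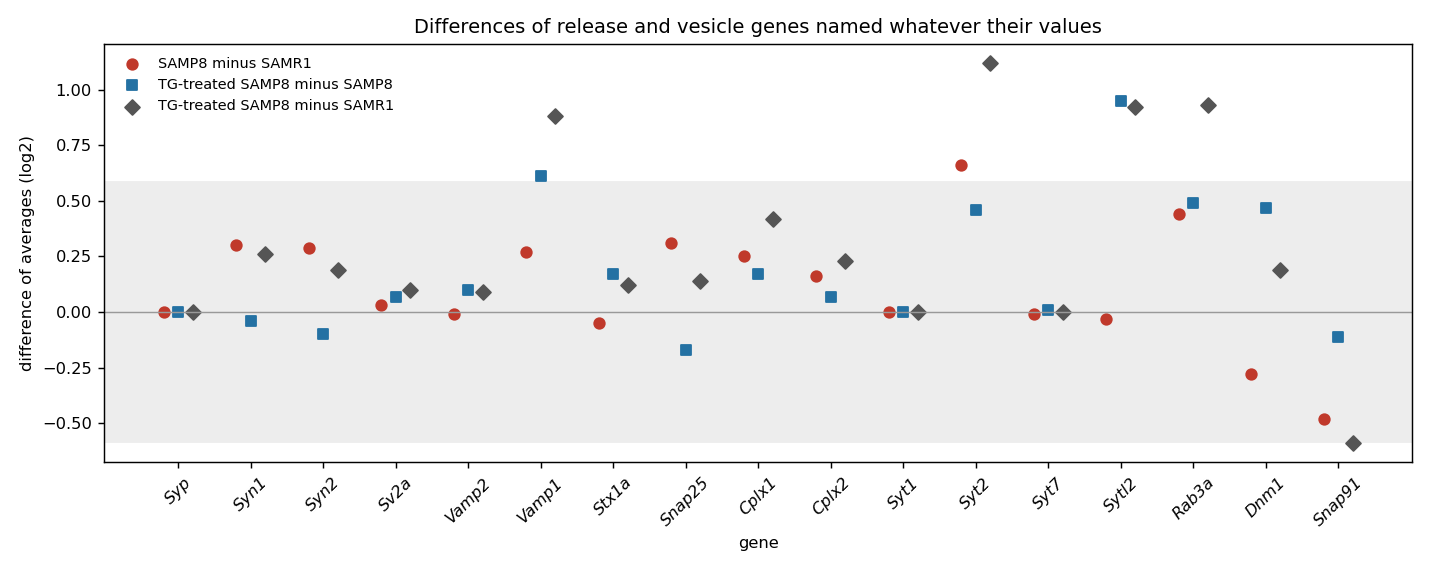
Differences of group averages (log2, vertical axis) for release and vesicle genes that were described whatever their values, in the 3 comparisons (circles, squares and diamonds), with the grey band at 1.5-fold. For Vamp1 the probe set of strong signal is shown. Syp, Syt1 and Syt7 lie at 0 or within 0.01 of it, and for Syp and Syt1 the signal is at or near the top of the scale. Vamp1 and Sytl2 leave the band with TG, and Syt2, Rab3a, Vamp1 and Sytl2 lie highest between TG-treated SAMP8 and SAMR1.

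Other genes of the release cycle, listed by function (active zone, SNARE disassembly, transmitter loading, endocytosis), gave 55 probe sets. Between strains 3 were more than 1.5-fold higher in SAMP8 (5.45%) and 0 lower, where 5% and 6.08% of all probe sets were. With TG 3 were higher (5.45%) and 3 lower (5.45%), where 4.48% and 3.74% of all probe sets were. Between the treated mice and SAMR1 6 were higher (10.9%) and 1 lower (1.82%), where 5.62% and 4.83% of all probe sets were. Of probe sets above the median signal, 8.57% were higher and 4.91% lower in this last comparison. The medians of the 55 release probe sets in the 3 comparisons were 0.13, -0.07 and -0.02 in the same order. Sncb (beta-synuclein), a presynaptic relative of alpha-synuclein, averaged 12.43 in SAMR1, 12.04 in SAMP8 and 13.34 in the TG-treated mice. The treated mice stood highest by far, 1.30 above SAMP8 (2.46-fold), which is more than for any member.

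The subunits of the AP-2 adaptor, which links cargo to clathrin, went apart. Ap2s1 had 8.32, 8.07 and 8.97 (0.90 with TG), while Ap2b1 had 13.45, 13.08 and 12.48 (-0.60 with TG and -0.97 from SAMR1). At the active zone, Rims3 had 7.04, 7.42 and 8.20 (0.78 with TG), whereas Unc13b (Munc13-2, a priming factor) had 7.55, 7.98 and 7.32 (-0.66 with TG) and Rims2 was 0.69 higher in SAMP8 than in SAMR1. The transporter genes past the limit were Slc17a6 (VGLUT2), with 7.48, 8.14 and 8.21, and Slc18a1 (VMAT1), with 3.87, 4.24 and 3.53 and thus in the lowest 25% of signal. Synj2, a phosphatase of the endocytic cycle, was 0.60 higher in SAMP8 than in SAMR1. Between the treated mice and SAMR1, Ppfia3 (liprin-alpha-3) was 0.71 and Rph3a (rabphilin, a Rab3 effector) 0.67 higher.

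Markers of other regions and cells were read in the same averages, because Sv2c, Syt2, Vamp1 and Slc17a6 are known to be strong outside the hippocampus. The thalamus list (8 probe sets of 6 genes, with 3 of them for Rora) was above 0 for 8 of 8 between strains (median 0.55), and with TG for 3, with 5 below (median -0.07). Its summed level was 12.28 in SAMR1, 12.69 in SAMP8 and 11.65 in the TG-treated mice on the log2 scale. Zic1, with 10.91, 11.47 and 9.56, and Prkcd, with 10.85, 11.03 and 9.53, were the 2 thalamus probe sets past the limit with TG. The lower sum with TG rests largely on these 2. Between the treated mice and SAMR1, 6 of the 8 thalamus probe sets were above 0 and 2 below (median 0.43). The striatum list (6 probe sets) had summed levels of 8.34, 8.42 and 8.15, with 5 of 6 below 0 with TG (median -0.24). The endothelium list (5 probe sets) had 11.47, 12.02 and 11.24. All 5 were above 0 between strains and all 5 below 0 with TG, so that SAMP8 was highest, as for Sv2c and Stxbp5l. That the sum was lowest in the TG-treated mice rests largely on Slco1a4 (11.06, 11.62 and 10.62). Between the treated mice and SAMR1, 2 of the 5 were above 0 and 3 below (median -0.13). The neuron list (9 probe sets) had summed levels of 20.31, 20.34 and 20.34, which rest largely on Camk2a at the top of the scale (19.93 in each group), and its median differences were 0.10 between strains and 0.05 with TG. In the lowest 25% of signal lay 1 striatum probe set and none of the thalamus or endothelium lists. The part of tissue outside the hippocampus or of other cells in the differences of the members was not tested.

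Long genes were more often lower with TG, among the members and on the array. Genomic span, from the first to the last base of the gene in RefSeq on GRCm38, was known for all 97 member probe sets. Across these, the difference with TG had a Spearman correlation of -0.31 with span, and across 21570 probe sets of the whole array it was -0.25. These correlations are over genes measured on the same arrays and describe only these averages. Of 22 members longer than 100 kb, 2 were above 0 with TG (Sytl2 and Syt2) and 19 below (median -0.18), and of 2406 probe sets of that length on the array 33.2% were above 0 (median -0.12). The 3 members more than 1.5-fold lower with TG were all in this class, with Sv2c at 173 kb, Syn3 at 450 kb and Stxbp5l at 278 kb. In the class of 20 to 100 kb the members went apart from the array. There 15 of 42 members were below 0 with TG and 59.5% were above (median 0.08). On the array, 42.6% of probe sets of that length were above 0 (median -0.04). In the class of up to 20 kb, 10 of 33 members were below 0. Of 33 members of up to 20 kb, 20 were above 0, among them Vamp1 (6.73 kb), Vamp8 (5.45 kb) and Rab3a (3.91 kb), and on the array it was 57.6%. Without the Rab30 to Rab39 probe sets, 2 of 20 members longer than 100 kb were above 0 and 17 below. Between strains the correlation had the opposite sign, 0.19 for the members and 0.18 for the array. Of the 22 long members 16 were higher in SAMP8, where 61.1% of long probe sets were. Between the treated mice and SAMR1, where the vehicle SAMP8 average does not enter, the correlation was -0.09 for the members and -0.04 for the array. There 11 long members were above 0 and 10 below (median 0.01), where 43.6% of long probe sets were above 0.

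**Figure D5:**
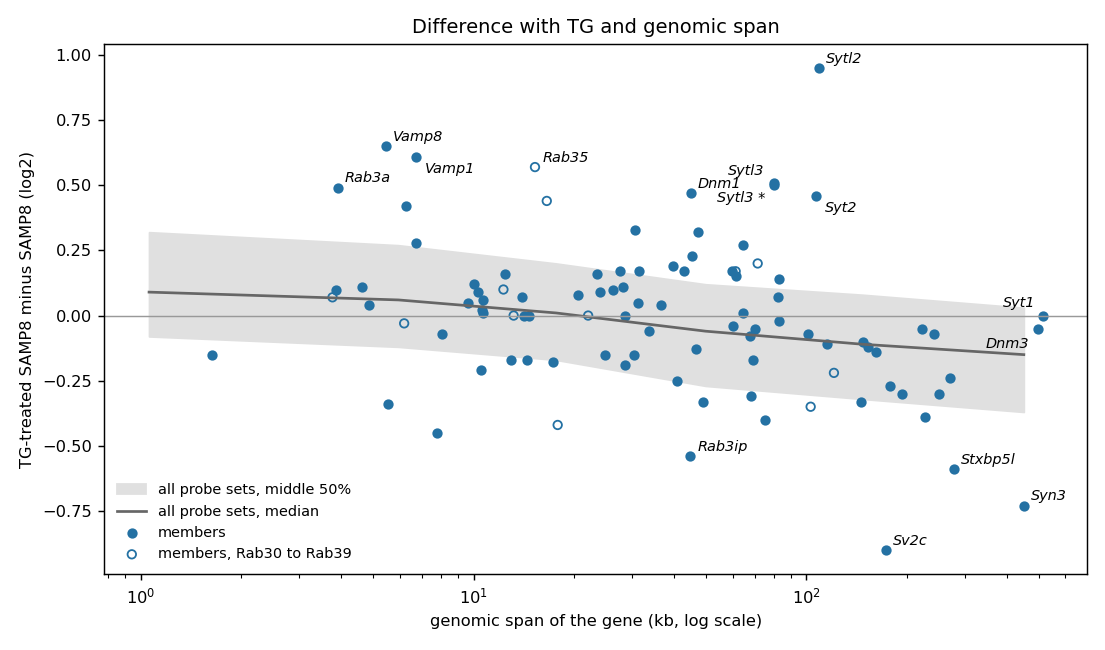
Difference with TG (log2, vertical axis) against genomic span of the gene (kb, log axis) for the 97 member probe sets, with open circles for Rab30 to Rab39. The grey line and band are the median and the middle 50% of all probe sets in classes of span, and * marks the second probe set of Sytl3. Long members lie below 0 except Sytl2, Syt2 and, at 0, Syt1, and the array as a whole slopes the same way.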

How the data were processed

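Clariom S Mouse arrays were run on hippocampal RNA of 3 groups of 3 mice. The authors summarized and normalized the intensities by SST-RMA in the Transcriptome Analysis Console, and the deposited tables, 1 for each of 2 comparisons, hold the authors' group averages as log2 signal per probe set, annotated on mm10. They also hold the authors' own fold changes, p-values and false discovery rates, which were not used. A description attached to the sample records concerns a macrophage line and was not used, and the series text names duplicates where the records give 3 samples per group. The number of arrays limits the precision.

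Differences of averages were computed for 22206 probe sets and counted past 1.5-fold, and the counting was checked on simulated differences. No test was run. Members and lists were chosen with earlier results of these data known. Named genes are members past the limit (up to 8 each way per comparison), release genes fixed by name, and other release genes past the limit (up to 4 each way). A few of these are not reported here. Sv2b, Syt5, Sytl5, Stx6, Stx7, Rab3b, Rab3c, Rab3d, Dnm2, Dnm3, the Rab30 to Rab39 genes, Stxbp3, Stxbp3-ps and the single marker genes were named after their values were seen. Probe sets of like signal lie within 0.5 of a member's mean. The marker lists for microglia, astrocytes, oligodendrocytes, choroid plexus and meninges are given with the other observations. Spans come from a RefSeq table of GRCm38 (97.1% of probe sets matched). Alternatives were fold limits of 1.2 and 2, leaving out the 25% of lowest signal or those below the median, 1 probe set per gene, 1 symbol per probe set, centring each difference on its median, and, added after seeing the data, leaving out Rab30 to Rab39. Values were computed in Python 3.11.15 (pandas 2.3.3, numpy 2.4.6, scipy 1.17.1) and plotted with matplotlib 3.10.9.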

Additional observations from a re-analysis of the deposited data

How the results depend on the processing

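No paired analysis was possible because the tables hold pooled group averages, which also left no replicate to leave out and no error. With a limit of 1.2-fold, 28 members were higher and 13 lower between strains, 15 higher and 16 lower with TG, and 25 higher and 18 lower between TG-treated SAMP8 and SAMR1. With a limit of 2-fold these counts were 0 and 1, 0 and 0, and 1 and 0. With 1 probe set per gene, or 1 symbol per probe set, 1 member was lower between strains, since the Vamp1 probe set shared with E130112N10Rik was then left out, and with 1 probe set per gene the strain median was 0.08. Without the lowest 25% by signal the medians were 0.12 between strains and 0.12 between the treated mice and SAMR1, above the median signal they were 0.125 and 0.12, and without Rab30 to Rab39, chosen after seeing the data, 0.12 and 0.12. Centring put the median with TG at -0.01 and the median between the treated mice and SAMR1 at 0.1, with 7 members higher and 1 lower there, as Rab35 and Snap91 lie at the limit. Of 87 differences of named members run under centring, 0 turned from positive to negative or back, and Syp and Syt1, at 0 in the averages, came to -0.01 with TG. The cause of these shifts was not tested beyond what each setting removes.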

Other observations

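None of the 12 probe sets of Rab30 to Rab39 was past 1.5-fold in any of the 3 comparisons. Of all probe sets 3.74% to 6.08% were in each direction, so few would be looked for among 12. Rab35, which acts in endosomal recycling, averaged 8.54 in SAMR1, 8.55 in SAMP8 and 9.12 in the TG-treated mice, a difference with TG of 0.57. Rab33a, a brain and immune cell Rab, had 7.91, 7.44 and 7.88, with SAMP8 lowest. Rab39b, a neuronal Rab in which loss causes X-linked intellectual disability, had 8.73, 9.27 and 9.24, with SAMR1 lowest. Rab36 and Rab30, both of the Golgi, were lower with TG, at -0.42 and -0.35. Stxbp3, a syntaxin-binding protein of insulin-responsive transport, had 8.24, 7.79 and 8.11, and its pseudogene Stxbp3-ps had 8.82, 8.70 and 8.55. Cross-hybridization between these was not tested.

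Among the other marker lists, the oligodendrocyte list (6 probe sets) had summed levels of 18.89 in SAMR1, 18.74 in SAMP8 and 18.94 in the TG-treated mice, with 5 of 6 above 0 with TG. The astrocyte list (6 probe sets) had 18.45, 18.51 and 18.47, a sum that rests largely on Slc1a2 (18.36, 18.4 and 18.37). Between strains all 6 were above 0 (median 0.15), with Gfap (0.95) and Slc1a3 (0.62) past the limit. With TG 1 was above 0 and 5 below (median -0.07). The microglia list (6 probe sets) had 13.06, 13.19 and 13.19. Between strains 3 were above 0 and 3 below (median 0.0), with Aif1 (1.51) and P2ry12 (0.86) past the limit. With TG 2 were above 0 and 4 below (median -0.17). Of all probe sets, 5% were more than 1.5-fold higher between strains. The choroid plexus list (6 probe sets) had 9.26, 9.93 and 10.38, a sum that rests largely on Ttr (8.45, 9.33 and 10.05). With TG 2 of its probe sets were above 0 and 4 below (median -0.11). The meninges list (7 probe sets) had 11.04, 10.59 and 10.1, a sum that rests largely on Dcn (10.66, 10.15 and 9.38). With TG 4 of its probe sets were above 0 and 3 below (median 0.1). The hippocampal neuron list (7 probe sets) had 15.44, 15.55 and 15.36, a sum that rests largely on Neurod6 (14.86, 14.85 and 14.88). Between strains 5 of its probe sets were above 0 and 2 below (median 0.25), with Prox1 (0.59) past the limit. With TG 4 were above 0 and 3 below (median 0.03). Prox1 (-0.85) and Zbtb20 (-0.65) were more than 1.5-fold lower with TG, where 3.74% of all probe sets were.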
